A study of Rattus norvegicus with 6 samples.

Results

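The genes described here are 30 components of the DNA damage checkpoint and of DNA repair, namely Brca1, Bard1, Palb2, Brca2, Rad51ap1, Rad54l, Rad54b, Xrcc2, Xrcc3, Rad50, Nbn, Rbbp8, Blm and Eme1 of homologous recombination, Fanca, Fancm, Fancd2 and Fanci of the Fanconi pathway, Atm, Atr, Topbp1, Chek1, Chek2, Clspn, Timeless and Tipin of the checkpoint, Msh6 and Exo1 of mismatch repair, and Polq and Neil3, which fall outside those 4 groups. They were taken by gene symbol, and each symbol had a single row among the 33565 rows of the count table. All 30 passed the filter on low counts and were tested. Cardiomyocytes were isolated from the hearts of Sprague-Dawley rats at postnatal day 7 and cultured in medium with 10% fetal bovine serum. The control group received vehicle and the other group 100 nM progesterone, a steroid hormone, both for 24 h, with 3 libraries of mRNA-enriched RNA in each group. The series title links progesterone to cardiomyocyte proliferation through YAP, a coactivator of the Hippo pathway, and the comparison is progesterone against vehicle. Libraries held 21156793 to 25376220 counts, and the 30 genes took 0.0785% to 0.0807% of the control counts and 0.114% to 0.116% of the progesterone counts. The labels call the libraries biological replicates without saying whether they came from separate animals or cultures, so p-values measure the spread between these libraries, which may be technical.

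Homologous recombination mends a broken or stalled chromosome by copying the sister chromatid, for which BRCA1 and BRCA2 help to load the recombinase onto resected DNA. The Fanconi proteins recognise crosslinks between the DNA strands and mark them for removal, mismatch repair corrects copying errors, and the kinases ATM and ATR signal breaks and stalled forks through CHEK2 and CHEK1 to halt the cell cycle. Many of these genes are transcribed mainly in S and G2 phase, when a sister chromatid is at hand, and heart muscle cells of rodents largely leave the cell cycle in the first days after birth.

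With progesterone, 27 of the 30 genes were higher, 1 (Nbn) was lower, and Rad50 and Atm did not pass the test (edgeR's quasi-likelihood test, adjusted p under 0.05 over 15075 genes). Of all genes tested, 63.0% changed, 31.2% being higher and 31.8% lower, so a changed gene was the common case in this comparison. With upper quartile scaling in place of TMM, 60.1% of the changed genes were higher, against 49.6%. At least 2-fold increases were found for 18 of the 30, where 7.14% of all genes tested were called at least 2-fold higher. The median log2 fold change was 1.26 over the 30 genes and 0.0033 over all genes tested. The 30 genes were chosen with earlier results of these data known. On the log2(FPKM + 1) scale, which understates the change of low genes, the median of the 30 was 0.81. Every progesterone library lay above every control library, in CPM (a gene's counts relative to the library total after TMM scaling), for 28 of the 30 genes, and for 33.8% of all genes tested. Every progesterone library lay below every control library for Nbn alone of the 30, and for 5251 of the 15075 genes tested. Separated groups were thus common in this comparison. In RNA from whole cultures, more cells that transcribe a gene and more RNA of it per cell cannot be told apart. The plot of levels by library shows the separation, and the plot of fold changes gives each gene's change with its standard error.

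**Figure D1:**
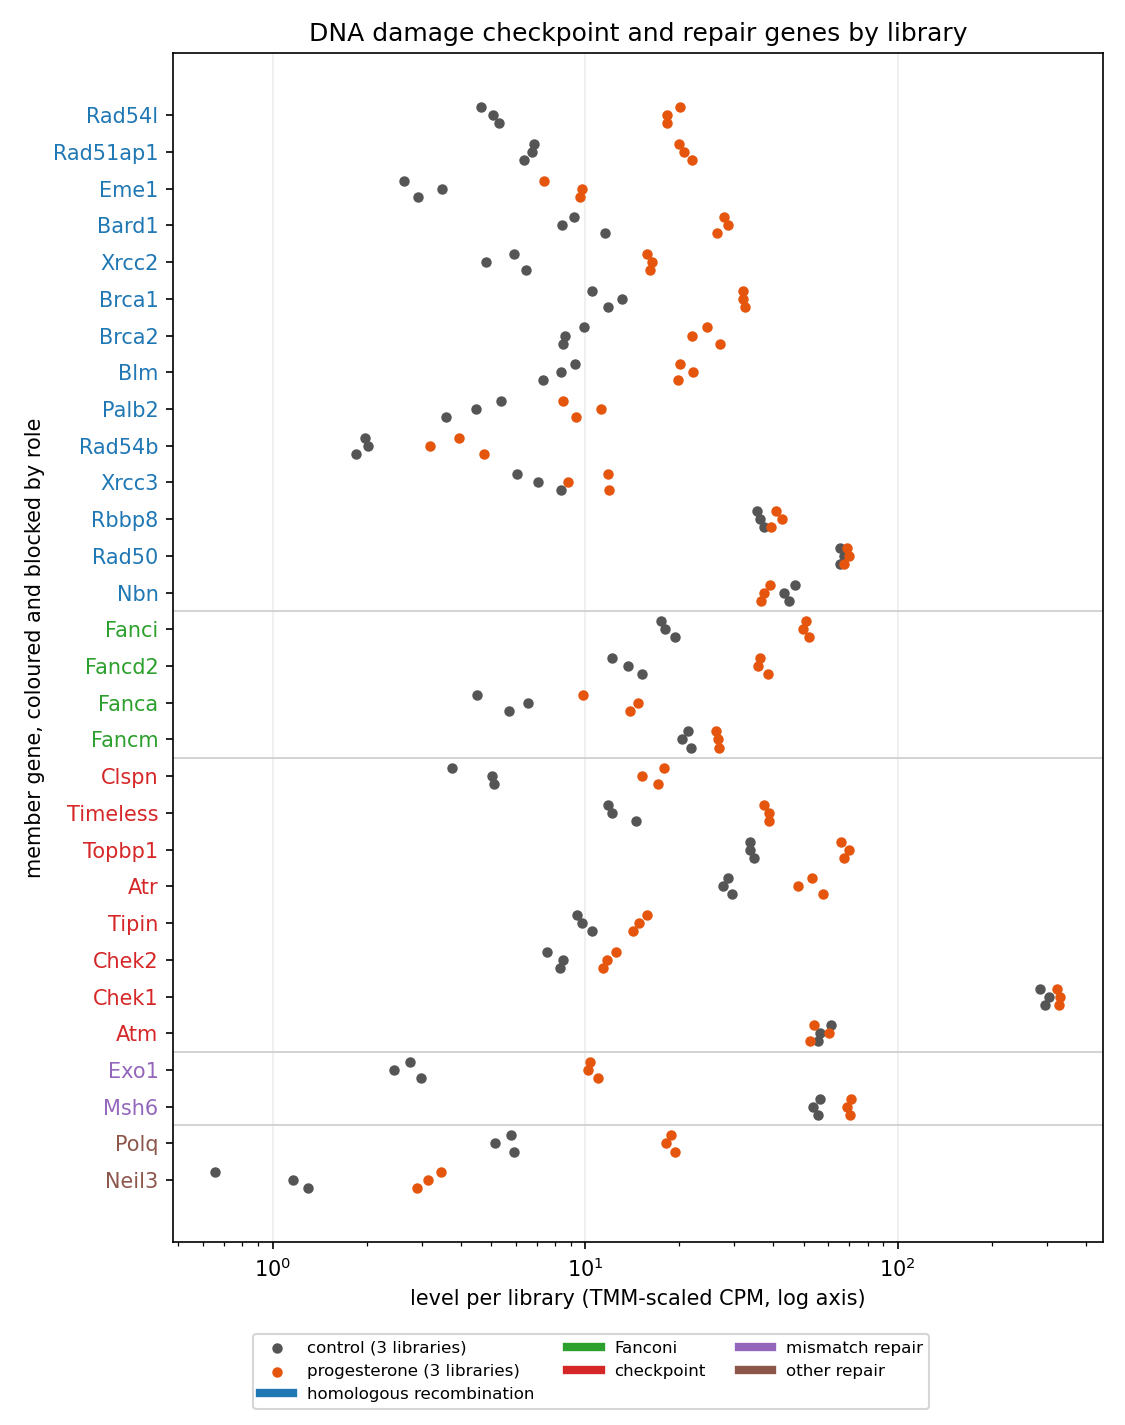
Each row is a gene and each point a library, with the TMM-scaled CPM on a log axis, control libraries in grey and progesterone libraries in orange. The groups are apart in all rows but that of Atm, with progesterone on the left side for Nbn alone. Of all 15075 genes tested, 5092 had groups apart with progesterone higher and 5251 with it lower.

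**Figure D2:**
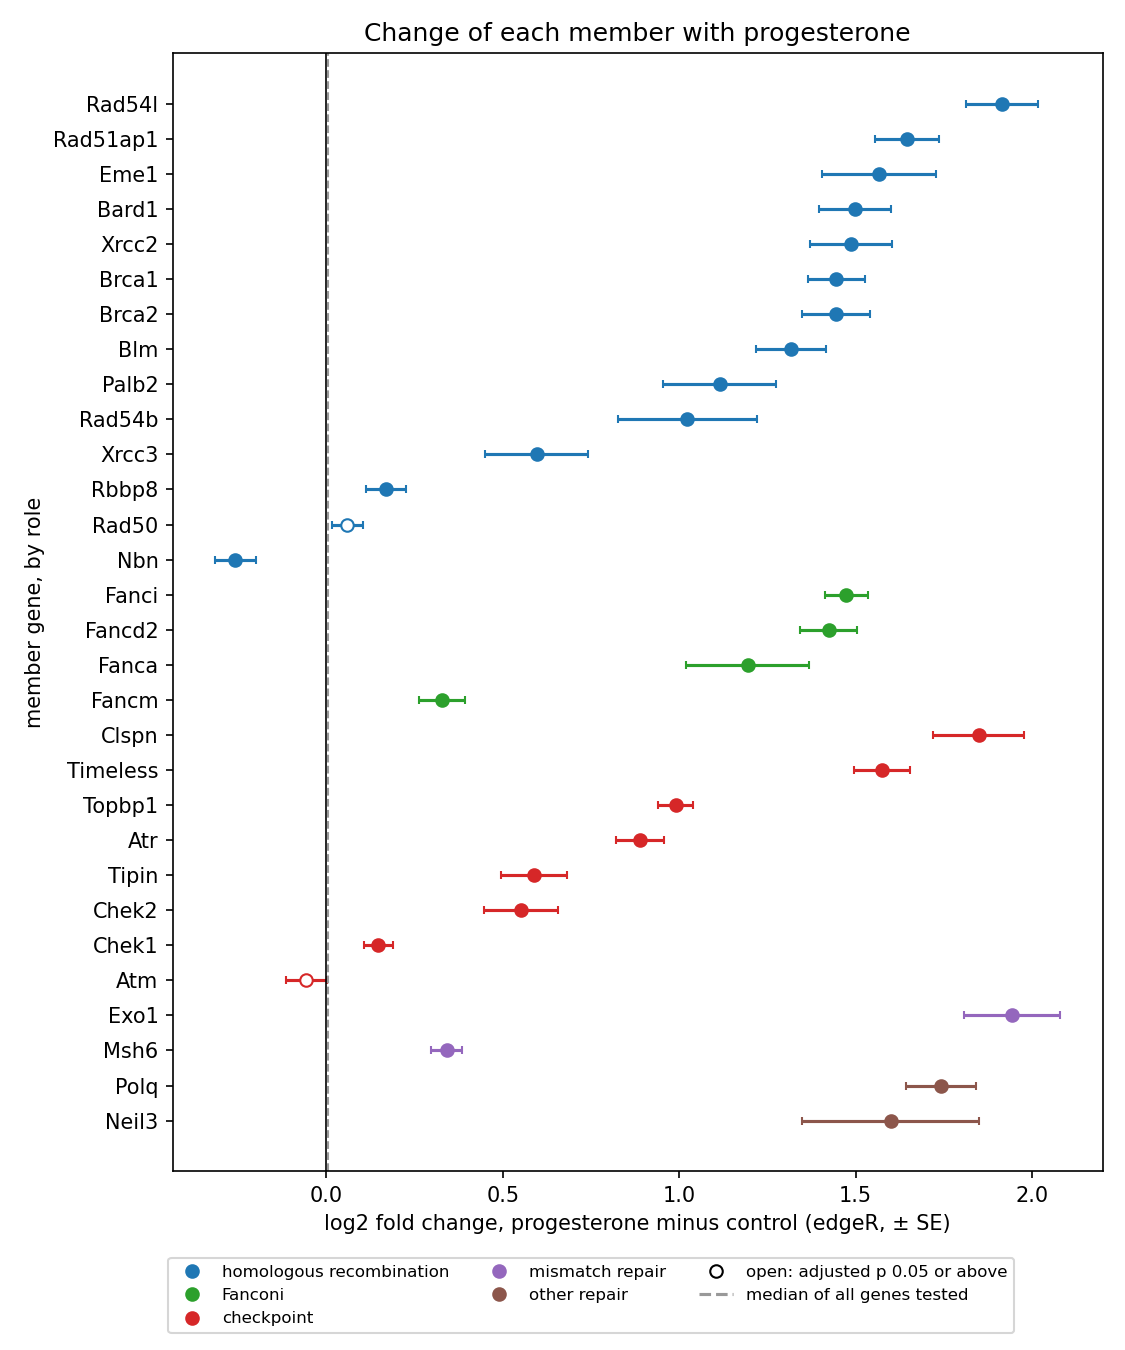
Points give the log2 fold change of progesterone against control for each gene from edgeR, bars its standard error, and colours the role; open points did not pass at an adjusted p of 0.05. Values run from -0.26 for Nbn to 1.94 for Exo1, and the dashed line marks the median of all genes tested, 0.0033.

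Promoters are shown for 4 of the 8 genes whose promoter held an E2F match, to show where the match lies in genes that rose and in Atm, which did not pass. RefSeq promoters on the rat build GRCr8, 250 bases before to 50 after the start, were at hand for 24 of the 30 genes, the others being Rad54b, Blm, Nbn, Chek2, Xrcc2 and Neil3. A match to the E2F motif, searched on both strands as TTTCCCGC or TTTGGCGC, was found for 8 of the 24 (Atm, Bard1, Chek1, Fancd2, Msh6, Timeless, Tipin and Topbp1), and for 1.62% of the 27457 genes with a promoter in that table. E2F factors are transcriptional regulators of genes used in S phase. Matches to TTTGAA, the core of the cell cycle homology region, were found for 6 of the 24 against 19.4% of all genes, and matches to the CCAAT box, CCAAT, for 12 of the 24 against 39.6%. All motifs were searched on both strands, matches of different motifs may overlap, and a match is a description of the letters, not a bound site. In the sequences below, 5′ to 3′ on the strand of the gene, capitals mark the E2F match, which is TTTGGCGC in Topbp1 and GCGGGAAA, the reverse complement of TTTCCCGC, in the other 3.
Timeless, chr7:1239200-1239499, plus strand: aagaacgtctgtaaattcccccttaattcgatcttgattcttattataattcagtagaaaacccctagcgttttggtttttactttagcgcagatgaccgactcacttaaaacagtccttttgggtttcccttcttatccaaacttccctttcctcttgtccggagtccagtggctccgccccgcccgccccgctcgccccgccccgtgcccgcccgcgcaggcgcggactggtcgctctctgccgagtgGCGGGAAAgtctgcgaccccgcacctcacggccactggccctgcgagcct
Fancd2, chr4:148234458-148234757, plus strand: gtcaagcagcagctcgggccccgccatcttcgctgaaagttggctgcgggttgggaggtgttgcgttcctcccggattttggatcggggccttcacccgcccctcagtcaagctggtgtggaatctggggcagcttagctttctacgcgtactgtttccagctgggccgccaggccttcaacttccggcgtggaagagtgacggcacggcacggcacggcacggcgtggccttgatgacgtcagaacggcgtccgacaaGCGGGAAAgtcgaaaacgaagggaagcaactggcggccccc
Topbp1, chr8:112766541-112766840, plus strand: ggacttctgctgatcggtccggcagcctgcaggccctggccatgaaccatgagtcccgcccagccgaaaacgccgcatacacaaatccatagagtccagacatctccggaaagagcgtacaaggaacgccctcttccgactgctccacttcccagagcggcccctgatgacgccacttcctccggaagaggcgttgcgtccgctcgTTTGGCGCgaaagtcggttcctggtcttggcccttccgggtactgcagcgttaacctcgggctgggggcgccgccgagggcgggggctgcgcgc
Atm, chr8:62828580-62828879, minus strand: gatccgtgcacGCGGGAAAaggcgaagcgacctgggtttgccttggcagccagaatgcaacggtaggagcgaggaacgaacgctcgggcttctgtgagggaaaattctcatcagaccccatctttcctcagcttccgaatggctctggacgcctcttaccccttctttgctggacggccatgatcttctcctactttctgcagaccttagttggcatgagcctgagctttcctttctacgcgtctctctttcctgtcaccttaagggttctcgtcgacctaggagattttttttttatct
The match began at the first base of the annotated transcript in Timeless, at position 10 of it in Fancd2, 44 bases before it in Topbp1 and 239 bases before it in Atm. Of the 3 annotated starts of Topbp1, a further start has the same match 59 bases before it, and the last has no match. Bard1, whose promoter is not printed here, rose 2.82-fold, and its match, TTTCCCGC, began 205 bases before the start. Timeless, Fancd2 and Topbp1 rose and Atm did not pass. Exo1, Rad54l, Clspn and Polq, among the genes that rose at least 3-fold, had no match. The search covered exact strings within these promoters, so a gene without a match may still hold an E2F site of other letters. The median log2 fold change was 0.79 (range -0.06 to 1.57) over the 8 genes with the match and 1.44 (0.06 to 1.94) over the 16 without it. The 8 include Atm and the Chek1 row, whose counts may not all be those of that gene. The difference was not tested.

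Homologous recombination contributed 14 genes, of which 12 were higher and 1 was lower. Among all genes tested, 31.2% were higher and 31.8% lower. The log2 fold changes of the 14 genes had a median of 1.38. Rad54l, a DNA translocase of strand exchange, was read at 5.31, 5.06 and 4.64 CPM in the controls and at 18.3, 18.2 and 20.1 CPM with progesterone. All progesterone libraries were more than 3 times any control library, a 3.77-fold rise (log2 fold change 1.91 ± 0.10, SE, n = 3 per group, adjusted p = 2.3e-10). Its row lies on chromosome 5 (134948512 to 134978125, in the coordinates of the authors' table, whose rat build is not named). Rad51ap1, whose product stimulates strand pairing, rose from 6.37, 6.78 and 6.87 to 22, 20.7 and 19.9 CPM (3.13-fold, adjusted p = 2.9e-10). Rad54b, a relative of Rad54l, was among the least read members, at 1.85, 2.02 and 1.97 CPM against 4.73, 3.20 and 3.94 CPM, and rose 2.03-fold (adjusted p = 0.00032). Its row shares 4645 bases on the same strand with that of Fsbp, which had a log2 fold change of 1.37 ± 0.24, so the authors' counting could have divided reads between the pair.

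Genes of the BRCA1-PALB2-BRCA2 axis rose by similar factors. Brca1, a ubiquitin ligase subunit and scaffold, went from 11.8, 13.1 and 10.5 to 32.5, 32.1 and 32.0 CPM, and Bard1, which encodes its obligate partner, from 11.6, 8.45 and 9.19 to 26.3, 28.6 and 27.8 CPM. The corresponding folds were 2.72 (adjusted p = 3.9e-10) and 2.82 (adjusted p = 1.1e-08), and in neither gene did the groups overlap. Brca2, which encodes the recombinase loader, rose 2.72-fold from 8.50, 8.62 and 9.89 to 27.0, 21.9 and 24.6 CPM (edgeR, adjusted p = 3.0e-09), and Palb2, which joins BRCA1 to BRCA2, rose 2.16-fold from 4.47 ± 0.900 to 9.68 ± 1.41 CPM (mean ± SD, n = 3; edgeR, adjusted p = 2.1e-05). The genes of the recombinase paralogues moved less evenly. Xrcc2 rose 2.80-fold from 6.45, 4.81 and 5.91 to 16.1, 16.3 and 15.7 CPM, and Xrcc3 1.51-fold from 8.38, 7.08 and 6.04 to 11.9, 8.84 and 11.8 CPM. The Xrcc3 groups nearly touched, and its row, with 1228 counts over the 6 libraries, shares 2167 bases with that of Klc1 on the opposite strand, which held 20020. Whether the counting used strand is not known here, so reads of Xrcc3 and Klc1 cannot be told apart there. Klc1 had a log2 fold change of 0.09 ± 0.04 (adjusted p = 0.076). Of the other paralogues, Rad51b and Rad51c rose 2.49-fold and 2.11-fold, and Rad51d had a log2 fold change of -0.09 ± 0.10 (adjusted p = 0.45).

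The MRN complex and its cofactor CtIP start the trimming of broken ends, and Rad50, Nbn and Rbbp8 changed little. Rad50, the coiled-coil subunit of the MRN nuclease complex, was read at 65.3, 67.1 and 65.4 CPM in the controls and at 67.4, 69.9 and 68.7 CPM with progesterone. Its groups did not overlap, but the log2 fold change of 0.06 ± 0.04 did not pass (adjusted p = 0.25). Nbn, the MRN subunit that recruits ATM, fell from 44.8, 43.1 and 47.0 to 36.4, 37.4 and 38.9 CPM, by 0.26 ± 0.06 on the log2 scale (adjusted p = 0.0010), the single decrease among the 30. Mre11, the nuclease of the same complex and not on the list, rose 1.39-fold (adjusted p = 3.8e-06), so the transcripts of the 3 subunits did not move together. Rbbp8, which encodes the resection factor CtIP, was at 37.4, 36.2 and 35.5 CPM and at 39.3, 42.6 and 40.8 CPM, a 1.12-fold rise (adjusted p = 0.017). The Rbbp8 call was lost without control replicate 2 (adjusted p = 0.057), control replicate 3 (0.054) or progesterone replicate 2 (0.061). Later in the pathway, Blm, a helicase that takes apart joined molecules, rose 2.49-fold from 7.32, 8.37 and 9.27 to 19.9, 22.2 and 20.1 CPM. Of its partners Top3a and Rmi1 did not pass (log2 fold changes 0.13 ± 0.07 and -0.12 ± 0.06). Rmi2, at low levels, was called 1.68-fold higher (log2 fold change 0.75 ± 0.27, edgeR, adjusted p = 0.028). Its groups overlapped, at 1.22, 2.27 and 1.84 CPM in the controls and 1.99, 3.20 and 3.72 CPM with progesterone. Eme1, a subunit of a structure-specific nuclease, rose 2.96-fold from 2.91, 3.48 and 2.62 to 9.61, 9.74 and 7.40 CPM, while Mus81, its catalytic partner, rose 1.16-fold.

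All 4 Fanconi members were higher, where 31.2% of all genes tested were, and the median log2 fold change of the 4 was 1.31. Fancd2 and Fanci encode the pair that is ubiquitinated at a crosslink. Fanci rose from 19.3, 18.1 and 17.5 to 52.1, 49.6 and 50.8 CPM, and Fancd2 from 15.2, 13.7 and 12.2 to 38.6, 35.6 and 36.3 CPM. The folds of 2.78 (adjusted p = 1.2e-11) and 2.68 (adjusted p = 4.1e-10) were close, and the libraries within a group were tight. Fanca, a subunit of the core complex that attaches ubiquitin, rose 2.29-fold from 5.71, 6.56 and 4.51 to 13.9, 14.7 and 9.82 CPM. Fancm, the helicase that anchors the core complex to DNA, rose from 21.1 ± 0.726 to 26.5 ± 0.341 CPM (adjusted p = 0.00041). The promoter of Fancd2 printed above holds an E2F match, while those of Fanci, Fanca and Fancm hold none. Among the other core subunits, Fancb (3.15-fold), Faap100 (1.74-fold), Fancc (1.61-fold), Fancg (1.61-fold) and Fance (1.31-fold) rose, whereas Fancf, Fancl and Faap20 had log2 fold changes of 0.04, 0.23 and -0.14 and did not pass. Faap24, whose product binds FANCM, did not pass either (0.04 ± 0.16). Of 16 tested Fanconi genes outside the list, 9 rose and 1 fell (median 0.31), beside 31.2% higher and 31.8% lower among all genes tested. Uhrf1, an epigenetic regulator that also senses crosslinks, led them with a 3.47-fold rise.

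The checkpoint contributed 8 genes, 7 of them higher and Atm the exception, where 31.2% of all genes tested were higher. The median log2 fold change of the 8 genes was 0.74. ATR and its partners answer stalled replication forks. Clspn, the mediator that presents CHEK1 to ATR, rose 3.60-fold from 5.12, 5.02 and 3.76 to 17.1, 15.2 and 17.8 CPM (adjusted p = 5.0e-09). Timeless, a fork protection factor, rose 2.98-fold from 14.5, 12.2 and 11.8 to 38.8, 38.7 and 37.4 CPM (adjusted p = 1.1e-10). Tipin, whose product binds TIMELESS, rose from 9.93 ± 0.562 to 14.9 ± 0.758 CPM, so the pair had unequal changes, a difference that was not tested. Atr itself was at 29.4, 27.5 and 28.7 CPM and at 57.6, 48.1 and 53.1 CPM, a 1.85-fold rise (adjusted p = 1.5e-08), and Topbp1, which activates ATR, rose 1.99-fold from 34.0 ± 0.498 to 67.6 ± 1.98 CPM (edgeR, adjusted p = 1.1e-10). Atrip, the binding partner of ATR, had a log2 fold change of 0.03 ± 0.15 (adjusted p = 0.88). Of the clamp that TOPBP1 binds, Rad9a and Rad1 rose 1.47-fold and 1.42-fold, and Hus1 did not pass (-0.15 ± 0.07).

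ATM and CHEK2 answer DNA breaks. Atm was read at 55.6, 56.6 and 61.2 CPM in the controls and at 52.4, 60.1 and 54.1 CPM with progesterone, the sole member whose groups overlapped. Its log2 fold change of -0.06 ± 0.06 did not pass (adjusted p = 0.41) and became 0.04 with upper quartile scaling. Chek2, the kinase that ATM activates, rose 1.47-fold from 8.30, 8.50 and 7.57 to 11.4, 11.8 and 12.5 CPM (adjusted p = 0.00029). Cdkn1a, which encodes an inhibitor of cyclin-dependent kinases, had a log2 fold change of 0.03 ± 0.09 (adjusted p = 0.80).

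The row named Chek1 stands apart from the rest. It held 295, 305 and 286 CPM in the controls and 328, 331 and 323 CPM with progesterone, a 1.11-fold rise (adjusted p = 0.0056). Per length it was the highest member, at 34.8 FPKM in the controls, against 16.7 FPKM for Nbn, the next. The row runs over 62720 bases of chromosome 8 (39181163 to 39243882, minus strand) with a gene length of 8468 bases, and ends 11006 bases before the row of Ei24. In RefSeq's gene order on GRCr8, used here for names and neighbours alone, Stt3a, which encodes a subunit of the oligosaccharyltransferase, lies between Chek1 and Ei24. No row analysed here had the name Stt3a, so the counts of the Chek1 row may not all be those of the checkpoint kinase gene, and their division was not tested. This row held 37.2% of all member counts in the controls and 28.3% with progesterone, and sums over the members are therefore also given without it.

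Both mismatch repair genes were higher, where 31.2% of all genes tested were. Msh6, whose product finds mispaired bases, rose 1.27-fold from 55.8, 53.5 and 56.3 to 70.1, 68.8 and 70.8 CPM (adjusted p = 7.6e-06). Exo1, an exonuclease that acts in mismatch repair and in the resection of breaks, had the highest log2 fold change of the 30, 1.94 ± 0.14, from 2.99, 2.45 and 2.76 to 11.0, 10.2 and 10.3 CPM (chromosome 13, 93939022 to 93960342, adjusted p = 6.2e-09). The remaining genes were also among those that rose at least 3-fold. Polq, the polymerase of an error-prone end joining route, rose 3.35-fold from 5.90, 5.15 and 5.77 to 19.4, 18.1 and 18.9 CPM (adjusted p = 4.4e-10). Neil3, a glycosylase that removes damaged bases and unhooks crosslinks, rose 3.03-fold (adjusted p = 4.4e-05) from 1.3, 1.16 and 0.656 to 2.89, 3.15 and 3.46 CPM, and its lowest library held 15 counts.

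The plot of control level against change shows that the members with high control levels tended to have smaller changes. In the deposited FPKM, which are per length, control means ran from 0.524 for Neil3 to 16.7 for Nbn and 34.8 for the Chek1 row. The 6 genes at 10 FPKM or more (Nbn, Rad50, Rbbp8, Msh6, Tipin and Chek1) had log2 fold changes of -0.26 to 0.59 with a median of 0.16, whereas the 13 genes under 2 FPKM lay between 1.02 and 1.94 with a median of 1.49. Spearman's rho between the control level and the log2 fold change was -0.73 over the 30 genes and -0.70 without Chek1, as a description across genes that share the same libraries, with the control level entering both measures. Among low genes Atm (4.67 FPKM) and Fancm (3.21 FPKM) had small changes, so level and change did not match gene by gene.

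**Figure D3:**
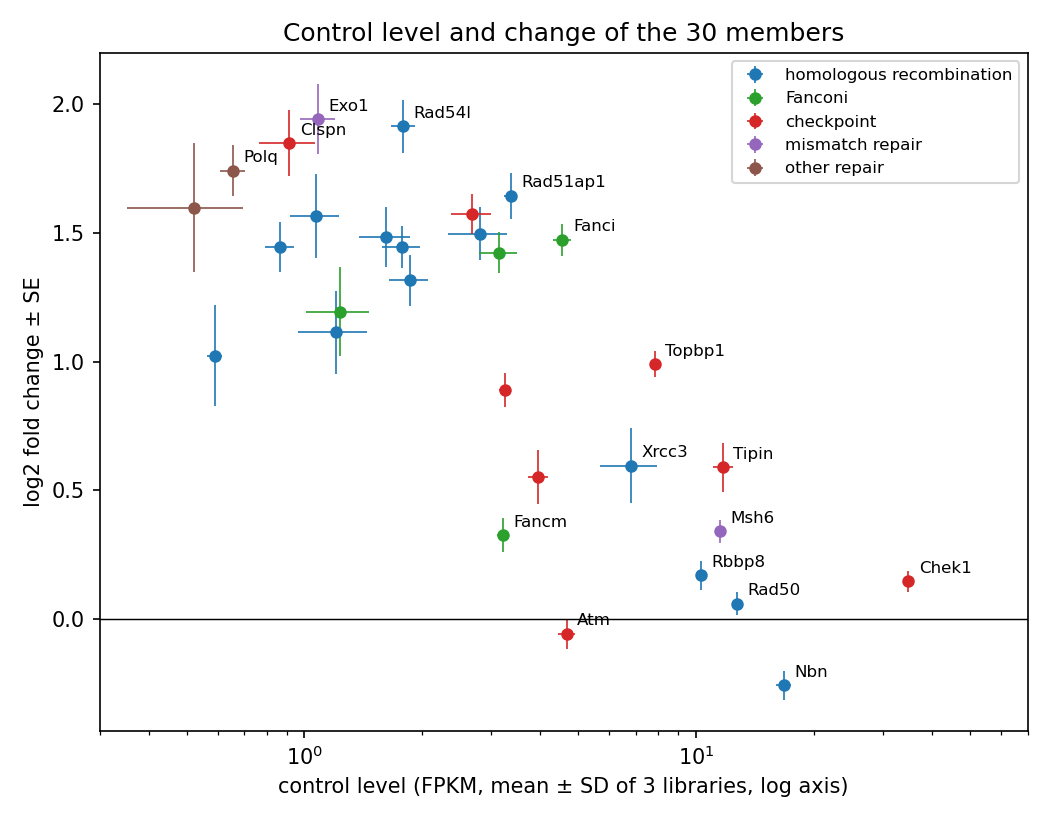
Points are the 30 genes, with the control level in FPKM (mean ± SD of 3 libraries, log axis) across and the log2 fold change ± SE upward, coloured by role. The 6 genes at 10 FPKM or more lie at or under 0.59, and the 13 genes under 2 FPKM at or above 1.02.

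Genes of other repair pathways give the setting. Over 8 further lists of recombination, Fanconi, checkpoint, mismatch, base excision, end joining, nucleotide excision and translesion genes, 77 of 150 tested genes rose and 19 fell (median log2 fold change 0.22). Among all genes tested, 31.2% were higher and 31.8% lower, and the counts that follow stand beside these shares. Other recombination genes were higher in 18 of 31 and lower in 4 (median 0.32), led by Recql4, a helicase, at 3.54-fold. Other checkpoint genes were higher in 19 of 28 and lower in 2 (median 0.53), led by Pkmyt1, an inhibitory kinase of CDK1, at 3.75-fold and Dtl, a substrate receptor that removes the licensing factor CDT1, at 2.83-fold. Of 13 other mismatch repair genes, which include replication factors, 8 were higher and 2 lower (median 0.60), with Pold2 and Pold1, subunits of polymerase delta, at 2.42-fold and 2.12-fold.

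Further pathways act on single damaged bases, bulky lesions, damaged templates in replication, or broken ends, and their counts stand beside 31.2% higher and 31.8% lower among all genes tested. Base excision repair had 11 of 21 genes higher and 2 lower (median 0.32), with Fen1, the flap nuclease, at 2.25-fold and Neil2 at 1.90-fold. Nucleotide excision repair had 8 of 20 higher and 4 lower (0.08), with Ercc2, a helicase subunit of TFIIH, at 1.79-fold and Xpc, the damage sensor, at a log2 fold change of -0.60 ± 0.06. Translesion synthesis had 3 of 12 higher (0.08), among them Rad18, the ubiquitin ligase for PCNA, at 2.93-fold and the polymerase gene Polh at 1.81-fold. Non-homologous end joining, which joins broken ends without a template, had 1 of 9 tested genes higher and 4 lower (median -0.20). Its single higher gene was Xrcc6, which encodes a subunit of the Ku dimer (1.63-fold), and Nhej1, which encodes the ligase cofactor XLF, had a log2 fold change of -0.76 ± 0.18. The differences between lists were not tested, and members and lists were chosen with earlier results of these data known.

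**Figure D4:**
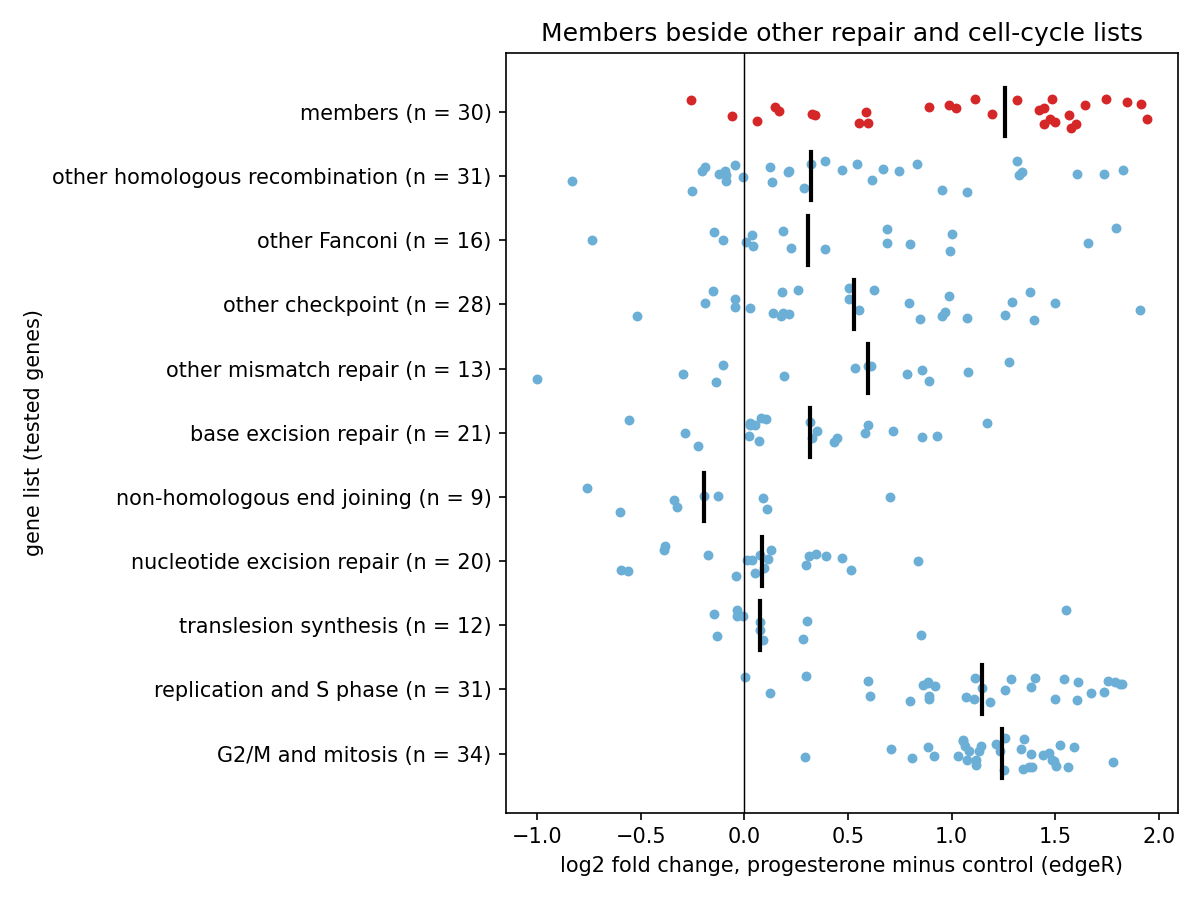
Each point is a tested gene with its log2 fold change of progesterone against control, each row a list with the number of genes tested, and black bars give the medians. The members (median 1.26) stand beside replication genes (1.15) and mitosis genes (1.25), with the other repair lists between -0.20 and 0.60. Members and lists were chosen with earlier results of these data known.

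Cell cycle genes moved in the same libraries. Of 31 tested replication genes 28 were higher and none lower (median 1.15), Cdc6 and Mcm10, which load and start the replicative helicase, leading with 3.54-fold and 3.51-fold. The list of G2/M and mitosis genes had 34 tested and each of them rose (median 1.25), with Top2a at 3.43-fold and Nuf2 at 3.02-fold. Mki67, present in cycling cells, rose 2.62-fold and Pcna, the replication clamp, 1.86-fold. The CPM of the 29 members without the Chek1 row summed to 508, 493 and 497 in the controls and to 834, 828 and 824 with progesterone, 1.66-fold higher, and with that row to 1.45-fold. The G2/M list summed to 2.37-fold and the replication list to 2.05-fold. Divided by the G2/M sum, the summed level of the 29 members was 0.389, 0.384 and 0.411 in the controls and 0.280, 0.269 and 0.281 with progesterone. Each of these ratios was lower in all progesterone libraries than in any control library, with or without Chek1 and against either list. The ratios are descriptions and were not tested. They weigh genes by their level, so that well-read members with small changes, such as Rad50, Atm and Nbn, count heavily, whereas the median log2 fold change per gene was 1.26 for the members, 1.25 for the G2/M list and 1.15 for the replication list.

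**Figure D5:**
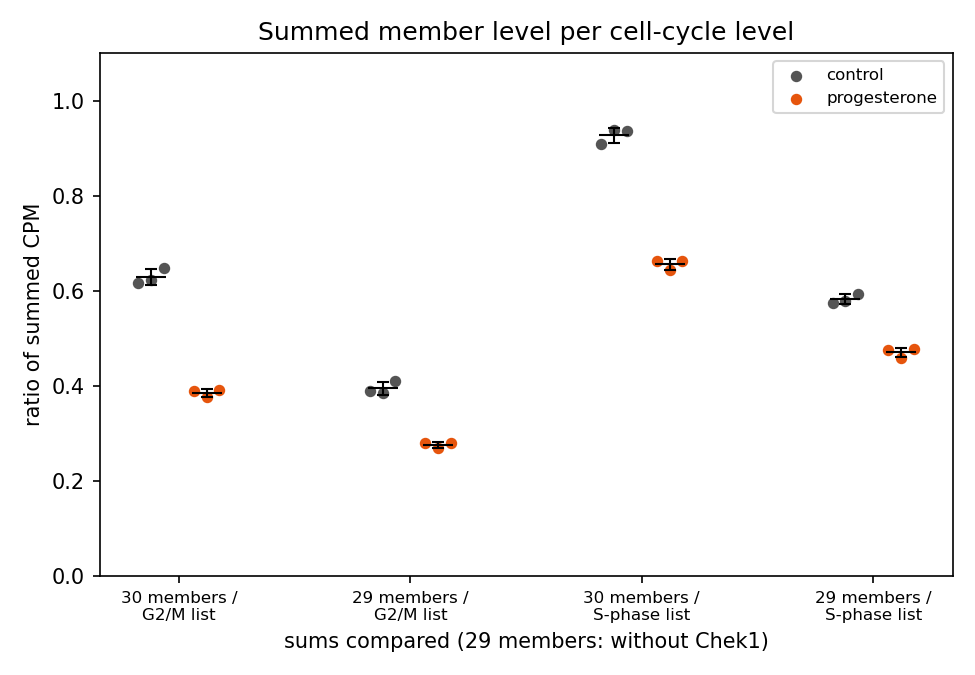
The summed CPM of the members, with and without the Chek1 row, is divided by the summed CPM of the G2/M and mitosis list or of the replication and S phase list, with a point per library and bars for mean ± SD (n = 3). Control points lie above progesterone points in each of the 4 pairs, for example 0.628 against 0.386 for all 30 genes over the G2/M list.

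Marker lists of heart cell types are given beside the share of all genes tested that was higher (31.2%) or lower (31.8%). Cardiomyocyte markers were present in all libraries, with 3 of 10 higher and 3 lower and summed levels of 17958 to 18389 CPM in the controls and 19475 to 22334 CPM with progesterone. Of the cardiomyocyte markers, Actc1 rose from 4624 ± 202 to 7509 ± 758 CPM, Nppa and Myh7 also rose, and Myh6, Tnnt2 and Pln fell. For smooth muscle cells and pericytes, 9 of 10 markers rose and 1 fell (3448 to 3931 against 6412 to 6888 CPM). For leukocytes, 8 of 10 tested markers rose and 1 fell (48.4 to 68.5 against 176 to 199 CPM); for fibroblasts, 5 of 9 rose and 3 fell (27497 to 28587 against 36930 to 39883 CPM). Lyz2, a myeloid gene, rose from 7.06 ± 3.33 to 110 ± 6.44 CPM and made up most of the leukocyte sum with progesterone. Cd74, of the same list, fell from 12.6 ± 1.52 to 1.63 ± 0.545 CPM, and Cd14 did not pass. Endothelial markers had 3 of 9 higher and 3 lower (177 to 229 against 146 to 195 CPM), and epicardial markers 3 of 8 higher and 4 lower (208 to 223 against 246 to 272 CPM). Schwann cell markers had 1 of 5 tested higher and 2 lower (165 to 171 against 58.4 to 63.9 CPM), and the single erythroid marker tested was lower, while Hbb had no count in any library. Fibroblasts, smooth muscle cells and macrophages can divide in culture, and the part of these cells in the changes of the repair genes was not tested.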

How the data were processed

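RNA-seq of 6 libraries was analysed, 3 control and 3 progesterone, grouped by their titles. The authors deposited raw counts per gene and FPKM values per gene (counts scaled by gene length and library total). Bowtie 0.12.2 and the mouse build mm8 stand in the submitters' processing notes, although the rows carry rat Ensembl identifiers; the sources used here do not give the rat build, annotation, counter or strand setting. Rows without a gene name (682 of 33565, 0.888% of control and 0.844% of progesterone counts) have coordinates and identifiers of their own and were kept in the fit. Of the symbols, 272 came through NCBI gene accessions (RefSeq, GRCr8).

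The test was edgeR 4.0.16 under R 4.3.3 (filterByExpr, minimum count 10, minimum total 15, then TMM, robust glmQLFit, glmQLFTest, Benjamini-Hochberg adjustment over all genes tested). SEs were derived from the F statistic. The test was run on simulated data with known changes, 50 genes at each size. It recovered 38% of 1.25-fold, 60% of 1.5-fold, 90% of 2-fold and 100% of 4-fold changes, and 11 of 155 calls were false. Far fewer genes changed in the simulation than in these data. A gene that did not pass may therefore still have changed by a small factor.

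All 30 members are named. Of each other list, up to 2 called genes with a mean of at least 1 CPM and the widest change are named, with partners of members in known complexes and Mki67, Pcna and Cdkn1a; some genes that this rule names are not reported here; Klc1, Fsbp, Stt3a and Ei24 were added for their position after values were seen. Members and lists were chosen with earlier results of these data known. Of 347 list entries, 14 had no row here. Within groups, log2 CPM correlated at 0.988 to 0.990, and no replicate pair agreed within sampling noise (chi-square over its degrees of freedom 5.57 to 9.79). Also run were scaling by RLE, by upper quartile or by library size alone, no filter, a filter of at least 1 CPM in 3 libraries, fits without each replicate, a replicate block, DESeq2 1.42.0, and limma 3.58.1 on log2(FPKM + 1) and log2(FPKM + 0.1). Sums without Chek1 were added after seeing the data.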

Additional observations from a re-analysis of the deposited data

How the results depend on the processing

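Under 15 alternatives, 27 to 29 of the 30 genes changed, 26 to 28 of them higher and 1 lower, and 27 genes had the same direction and call throughout. Leaving out a replicate gave 26 or 27 higher genes. The exceptions were Rbbp8, described with its values above, Rad50, which passed with upper quartile scaling (log2 fold change 0.16, adjusted p = 0.0052), and Atm, which turned to a log2 fold change of 0.039 there without passing (adjusted p from 0.10 to 0.85 over its alternatives). The median log2 fold change of 1.26 was 1.35 with upper quartile scaling and 0.81 on the log2(FPKM + 1) scale, where the added 1 shrinks the change of low genes, and ran from 1.21 to 1.35 when a replicate was left out, the highest being without progesterone replicate 3. Over all genes, 8686 to 9871 changed under the 15 alternatives, against 9496 of 15075 in the main fit. Upper quartile scaling gave 60.1% of changed genes as higher, against 49.6% with TMM, and moved the median of all genes by 0.097. With the replicate number as a block, 28 of the 30 genes changed and 9509 genes in all, against 9496; same-numbered libraries did not deviate together (correlations of deviations 0.049, 0.018 and -0.00094), and 2 of 6 libraries correlated best with their own number, so the numbers were not taken to pair the libraries. The summed member level relative to the G2/M list fell to 0.614 of its control value, to 0.676 in FPKM, 0.700 without Chek1, 0.708 against the replication list, and 0.808 against that list without Chek1. Genes of a few CPM, such as Neil3 and Rad54b, have the widest standard errors, 0.25 and 0.20 on the log2 scale.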
